A study of Homo sapiens with 26 samples.

Results

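Desmosomes are the junctions that tie the keratin filaments of neighbouring epithelial cells together. The 10 genes described here encode their main building blocks, namely the cadherins DSG2, DSG3, DSC2 and DSC3, the armadillo proteins JUP, PKP1, PKP2, PKP3 and PKP4, and the plakin DSP. They were chosen as the probesets whose symbol in the platform annotation is exactly one of these names, which gave 292 of the 844005 probesets on the array. All 10 genes were among the 16600 genes tested, with between 16 of 21 probesets (PKP1) and 48 of 50 probesets (PKP4) bright enough to be used. The cells were MCF10A, a single established line of immortalised human mammary epithelial cells that depends on EGF, and the study asked how glucocorticoids alter the transcriptional response to EGF. The cells had been grown with EGF and hydrocortisone, a natural glucocorticoid, and were then starved overnight. They received EGF together with DEX (dexamethasone, a synthetic glucocorticoid, at 100 nM, with EGF at 10 ng per ml), EGF alone (10 ng per ml) or DEX alone (100 nM), and the reference was 2 arrays of untreated cells at 0 min. Each treatment was measured on 2 arrays at 20, 40 and 60 min and on 1 array at 120 and 240 min, 26 exon arrays in all. No untreated cells were measured at later times, so treatment and time since starvation cannot be told apart in comparisons with untreated cells, and all such comparisons share the same 2 arrays.

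In a desmosome, the desmogleins (DSG) and desmocollins (DSC) cross the membrane and bind their partners on the next cell. Plakoglobin (JUP) and the plakophilins (PKP) sit on the cadherin tails inside the cell, and desmoplakin (DSP) links them to keratin. In mammary and other epithelia these junctions give the cell sheet mechanical strength and are remodelled when cells migrate.

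The arrays gave clear responses to both agents. FOS, EGR1 and EGR3, immediate early transcription factors, rose with EGF by up to 3.19, 2.32 and 3.10 on the log2 scale, and TSC22D3 and FKBP5, textbook glucocorticoid targets, rose with DEX by up to 1.82 and 1.19 (adjusted p of 5.90e-04 or less, limma F-test over the 5 times). The checks were not specific to 1 agent. PER1, also set as a check for DEX, passed as higher with EGF and did not pass with DEX. FOS and EGR1 also passed with DEX, but in opposite directions, so that 3 of the 6 checks were higher and 1 lower. All 6 basal epithelial markers measured were above the stricter background of 5.97 (log2), as were 4 of 5 luminal, 3 of 5 fibroblast, 1 of 3 leukocyte and 1 of 4 endothelial markers. Each array's median correlation with the others lay between 0.960 and 0.981, and no array stood apart. The labels do not say that replicates came from separate cultures, so p-values measure only the spread between these arrays, which may be technical, and the lone arrays at 120 and 240 min are assumed to vary as the duplicated groups do.

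Below, a level is the median-polish summary of a gene's probesets in log2 intensity, and levels are compared only within a gene. Differences are log2 with their standard error (SE), adjusted p-values are over all 16600 genes, and a gene is called at an adjusted p under 0.05 and a difference of at least 1.5-fold. Early means 20 to 60 min and late means the average of 120 and 240 min. Late comparisons between treatments were added after the members' values were seen.

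The promoters shown here are of members called in a late comparison. DSC2 and JUP were called lower with EGF+DEX than in untreated cells, while DSP and DSG3 were called higher with DEX than with EGF. DSC3 was also lowest with EGF+DEX but was not called, and its window is not shown. RefSeq promoter windows (GRCh38.p14, 250 bases before to 50 bases after a gene start) matched 8 of the 10 members, all but PKP2 and PKP3. The windows lie at chr18:31102372-31102671 on the minus strand for DSC2, chr17:41786662-41786961 on the minus strand for JUP, chr6:7541421-7541720 on the plus strand for DSP and chr18:31447491-31447790 on the plus strand for DSG3. DSC2 and JUP have a further window each, which is not shown. Sequences run 5′ to 3′, and capitals mark matches to the motifs named below.
DSC2: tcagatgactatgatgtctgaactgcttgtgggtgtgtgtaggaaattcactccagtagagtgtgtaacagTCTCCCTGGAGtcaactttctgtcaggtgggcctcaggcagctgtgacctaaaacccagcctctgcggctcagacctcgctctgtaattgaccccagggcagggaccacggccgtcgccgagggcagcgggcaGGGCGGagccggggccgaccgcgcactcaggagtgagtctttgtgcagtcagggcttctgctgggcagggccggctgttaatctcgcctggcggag
JUP: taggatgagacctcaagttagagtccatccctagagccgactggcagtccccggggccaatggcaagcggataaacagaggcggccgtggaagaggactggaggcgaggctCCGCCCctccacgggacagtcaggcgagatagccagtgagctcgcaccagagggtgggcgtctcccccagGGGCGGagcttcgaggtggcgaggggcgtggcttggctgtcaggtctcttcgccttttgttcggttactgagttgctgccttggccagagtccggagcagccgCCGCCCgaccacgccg
DSP: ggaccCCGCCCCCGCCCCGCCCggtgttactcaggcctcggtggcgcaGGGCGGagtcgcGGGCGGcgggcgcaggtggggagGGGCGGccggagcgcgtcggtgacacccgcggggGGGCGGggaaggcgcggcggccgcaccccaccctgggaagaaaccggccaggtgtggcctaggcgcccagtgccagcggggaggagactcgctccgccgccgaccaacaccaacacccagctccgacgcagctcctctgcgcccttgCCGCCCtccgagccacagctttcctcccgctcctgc
DSG3: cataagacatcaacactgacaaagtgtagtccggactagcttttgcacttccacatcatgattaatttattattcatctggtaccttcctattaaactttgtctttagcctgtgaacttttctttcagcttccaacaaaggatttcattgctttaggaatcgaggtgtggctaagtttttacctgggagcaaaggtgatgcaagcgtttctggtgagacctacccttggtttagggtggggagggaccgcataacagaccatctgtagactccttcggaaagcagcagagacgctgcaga

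8 motifs were searched on both strands in all 35116 windows of 300 bases. Shares are given per window, whereas a member counts if any of its windows matches. PKP4, JUP and DSC2 had a further window each, so the 2 measures are not on an equal footing. The full glucocorticoid receptor palindrome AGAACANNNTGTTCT was in 0.00285% of the windows and its half-site AGAACA, which the palindrome contains, in 14.8%. Neither was in a window of any of the 8 members. The inverted-repeat negative glucocorticoid element (CTCCGGAGA, CTCCNGGAGA or CTCCNNGGAGA) was in 1.72% of all windows and, among members, in DSC2 alone, as TCTCCCTGGAG from -179 to -169 relative to the gene start. The AP-1 motif TGANTCA (7.71% of windows), the ETS motif CCGGAAG (10.3%), the EGR motif GCGTGGGCG (0.795%) and the TATA motif TATAAA (11.5%) matched no member. The GC box GGGCGG, in 45% of all windows, was in 6 of the 8 members: PKP1, PKP4, DSP, JUP, DSC2 and DSG2. The DSP window alone held 8 matches between -245 and 19, whereas the DSG3 window, with a GC content of 44% against 77% in DSP, held none. These are letter matches and no binding was measured.

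Of the 10 members, 1 was called with EGF (0.729% of all genes were called), 1 with DEX (3.54%) and 2 with EGF+DEX (4.87%) when all 5 times were tested against untreated cells. PKP2 rose with every treatment, and DSC2 fell with EGF+DEX. In the late average against untreated cells, 3 members were called with EGF+DEX (5.23% of all genes), 1 with DEX (3.67%) and 1 with EGF (1.41%). PKP2 was again the gene called with each treatment, and with EGF+DEX DSC2 and JUP fell. An unadjusted p under 0.05 (limma) was found late for 5 members with EGF+DEX (22.5% of all genes), 8 with DEX (19.9%) and 2 with EGF (13.5%). The median late difference of the 10 members was -0.18 with EGF+DEX, -0.03 with DEX and -0.10 with EGF, against medians over all genes of -0.04, -0.06 and -0.0014. With DEX, 5 of the 10 members were higher late than in untreated cells, so rises and falls offset in that median.

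**Figure D1:**
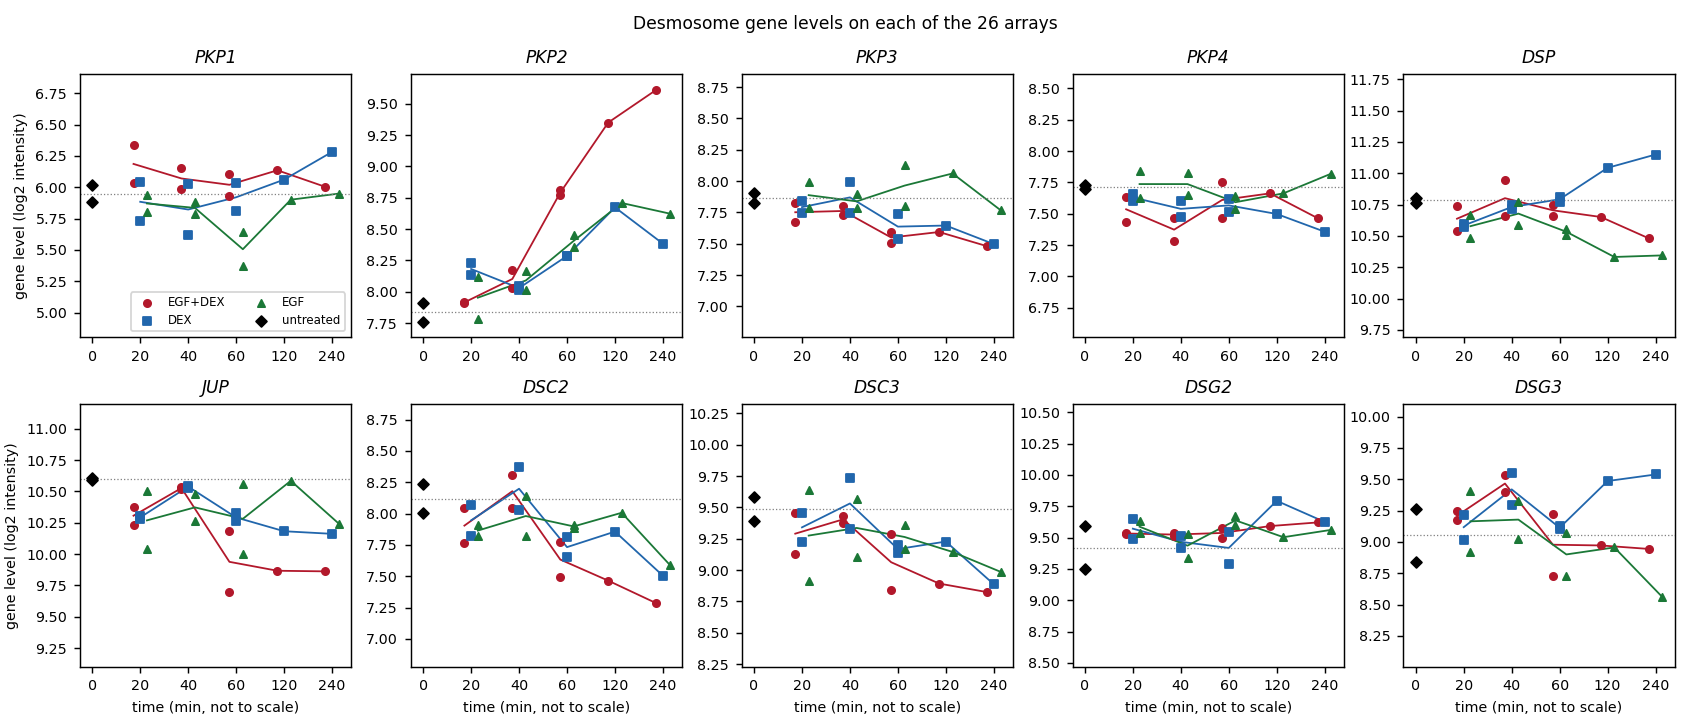
Level of each desmosome gene (log2 intensity, vertical axis, the same span of 2.1 in each panel) on every array against time in minutes (horizontal axis, not to scale), with single arrays as points, lines joining the means of EGF+DEX, DEX and EGF, and the mean of the 2 untreated arrays as a dotted line. PKP2 with EGF+DEX reached 9.35 and 9.61 at 120 and 240 min, above every other array.

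Among the armadillo proteins, PKP2, which binds DSP and helps to bring it to the plaque, had the widest range of group means, at 1.78. With EGF+DEX its level was 7.92 and 7.91 at 20 min, 8.03 and 8.18 at 40 min, 8.77 and 8.81 at 60 min, 9.35 at 120 min and 9.61 at 240 min, against 7.91 and 7.76 in untreated cells. The 20-min arrays overlapped the untreated ones, and the 4 arrays at 60 min or later were the highest of all 26. With EGF alone the level was 7.78 and 8.12 at 20 min, 8.17 and 8.01 at 40 min, 8.45 and 8.36 at 60 min, 8.71 at 120 min and 8.62 at 240 min. With DEX alone it was 8.13 and 8.23 at 20 min, 8.04 and 8.01 at 40 min, 8.29 and 8.28 at 60 min, 8.67 at 120 min and 8.38 at 240 min. Both single agents were above the untreated cells from 40 min on, and DEX already at 20 min.

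The late difference of PKP2 from untreated cells was 1.65 ± 0.12 with EGF+DEX (SE, 2 against 2 arrays, 3.13-fold, adjusted p = 4.50e-07, limma), 0.69 ± 0.12 with DEX (1.62-fold, adjusted p = 0.00253, limma) and 0.83 ± 0.12 with EGF (1.78-fold, adjusted p = 0.00266, limma). The rise with EGF+DEX was already called at 60 min, at 0.96 ± 0.12 (adjusted p = 4.17e-04, limma, with 1.48% of all genes called), and PKP2 was the member called. At 60 min the difference with EGF was 0.57 ± 0.12 (adjusted p = 0.0481, just below 1.5-fold) and with DEX 0.45 ± 0.12 (adjusted p = 0.108). Late against early arrays, PKP2 rose by 1.21 ± 0.10 with EGF+DEX (adjusted p = 2.13e-06, limma, with 2.27% of all genes called). The same comparison gave 0.52 ± 0.10 with EGF (adjusted p = 0.0248) and 0.36 ± 0.10 with DEX (adjusted p = 0.0517), both below 1.5-fold, and 0 members were called with EGF (0.464% of all genes were, and 2 members had an unadjusted p under 0.05, against 9.4% of all genes).

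The calls with single agents did not hold under every alternative. In the test over the 5 times, the PKP2 call with EGF (largest difference 0.87, adjusted p = 0.0114) was lost without untreated replicate 2 (adjusted p = 0.0556), and the late call with EGF was lost without the same array (adjusted p = 0.0683). The call with DEX over the 5 times (largest difference 0.84, adjusted p = 0.0258) was lost without untreated replicate 1 (adjusted p = 0.0552), untreated replicate 2 (0.0922) or the DEX 120-min array (0.108), and when the probesets were summarised by their mean (0.0637). Without the DEX 120-min array the late difference with DEX was 0.55, below 1.5-fold (adjusted p = 0.0442). The call with EGF+DEX (largest difference 1.78, adjusted p = 2.19e-06, limma F-test) was kept without any one array. With the times to 60 min alone, the calls with EGF (adjusted p = 0.160) and DEX (0.273) were lost, as was that of DSC2 with EGF+DEX given below (0.245).

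Over the 5 times together PKP2 was 0.40 ± 0.07 higher with EGF+DEX than with EGF (adjusted p = 0.00131, limma) and 0.44 ± 0.07 higher than with DEX (adjusted p = 9.18e-04, limma), below 1.5-fold in both cases. At the late times the excess was 0.81 ± 0.12 over EGF (adjusted p = 9.70e-04, limma, with 2.3% of all genes called) and 0.95 ± 0.12 over DEX (adjusted p = 5.45e-04, limma, with 2.37% called), and PKP2 was the single member called in both. DEX and EGF alone differed by -0.14 ± 0.12 at the late times (adjusted p = 0.519; 95% interval -0.40 to 0.13). The late difference with EGF+DEX departed from the sum of the single-agent differences by 0.12 ± 0.18 (95% interval -0.25 to 0.49; adjusted p = 1.00). Over all 10 members no such departure had an unadjusted p under 0.05, over the 5 times or late, and among all genes 1 was called over the 5 times (0.00602%) and 0 late, with 578 late at an unadjusted p under 0.05.

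The probesets along PKP2 moved together. All 27 were higher late with EGF+DEX than in untreated cells (median 1.59), as were 25 of 27 with DEX (median 0.71) and 27 of 27 with EGF (median 0.92). The residual spread of PKP2 between replicate arrays was 0.10, at the 11th percentile of all genes, and its largest replicate gap was 0.34, at 20 min of EGF.

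**Figure D2:**
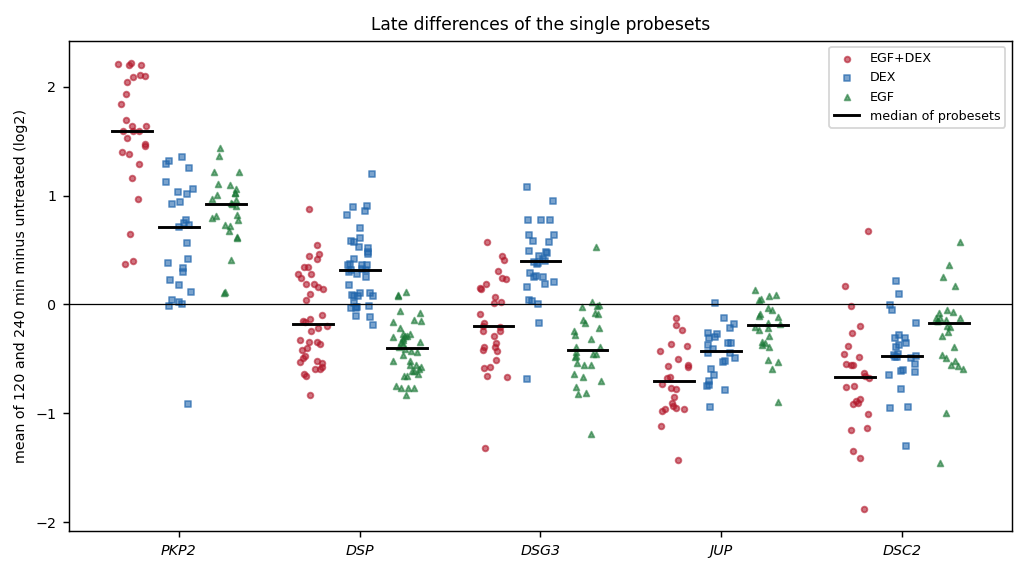
Late difference from untreated cells (log2, vertical axis) of every used probeset of PKP2, DSP, DSG3, JUP and DSC2 (horizontal axis), with EGF+DEX, DEX and EGF side by side, 1 point per probeset and a bar at their median. For PKP2 the medians are 1.59, 0.71 and 0.92, and for DSP all 40 probesets were higher with DEX than with EGF.

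Plakoglobin (JUP), the armadillo protein shared by desmosomes and adherens junctions, fell with EGF+DEX. Its level was 10.38 and 10.23 at 20 min, 10.52 and 10.53 at 40 min, 10.18 and 9.69 at 60 min, 9.87 at 120 min and 9.86 at 240 min of EGF+DEX, against 10.59 and 10.61 in untreated cells. The late arrays were 10.18 and 10.16 with DEX, and 10.58 and 10.24 with EGF. All 24 treated arrays lay below both untreated arrays, by as little as 10.58 against 10.59, and the EGF+DEX late arrays lay below every DEX and EGF array. The late difference from untreated cells was -0.73 ± 0.19 with EGF+DEX (1.66-fold lower, adjusted p = 0.0213, limma), with all 24 probesets lower. With DEX it was -0.43 ± 0.19 (adjusted p = 0.208) and with EGF -0.18 ± 0.19 (adjusted p = 0.725).

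The JUP call was lost without untreated replicate 1 (adjusted p = 0.0968), untreated replicate 2 (0.107), the EGF+DEX 120-min array (0.0625) or the EGF+DEX 240-min array (0.101), with the difference between -0.74 and -0.72 each time. In the test over the 5 times JUP did not pass with EGF+DEX (largest difference -0.74, adjusted p = 0.0691). Replicates of JUP lay up to 0.56 apart, at 10.56 and 10.00 after 60 min of EGF. 8 further probesets of JUP carry another gene's symbol as well and were left out.

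PKP1, PKP3 and PKP4, the other plakophilins, moved by less. PKP1, a plakophilin of stratified epithelia, lay between 5.93 and 6.34 with EGF+DEX (median of 8 arrays 6.07), and between 5.37 and 5.95 with EGF (median 5.84). Its lowest array was at 60 min of EGF, at 5.37, and the next was at 40 min of DEX, at 5.62. Over the 5 times it was 0.27 ± 0.09 higher with EGF+DEX than with EGF (adjusted p = 0.0381, limma), with 15 of 16 probesets higher. These levels lie around the stricter background of 5.97, and only 8 of the 16 probesets had a mean above it. PKP3, which binds most desmosomal cadherins, lay between 7.48 and 7.83 with EGF+DEX (median 7.64), and between 7.77 and 8.13 with EGF (median 7.85), so that the ranges overlapped. It was 0.28 ± 0.07 lower with EGF+DEX than with EGF over the 5 times (difference -0.28, adjusted p = 0.0178, limma), with 14 of 17 probesets lower. PKP4, a relative found at desmosomes and at other junctions, differed by -0.18 ± 0.07 (adjusted p = 0.0736).

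In this comparison of EGF+DEX with EGF over the 5 times, 0 members were called under limma (0.753% of all genes were), 6 had an unadjusted p under 0.05, as 38.2% of all genes did, and 3 an adjusted one, namely PKP1, PKP2 and PKP3. Against DEX, 0 members were called (0.361% of all genes), 3 had an unadjusted p under 0.05 (17.1% of all genes) and PKP2 alone passed the adjusted threshold. Against untreated cells none of PKP1, PKP3 and PKP4 passed at the late times. Their late differences with EGF+DEX were 0.12 ± 0.16, -0.33 ± 0.14 and -0.15 ± 0.13, for PKP1, PKP3 and PKP4 in this order.

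**Figure D3:**
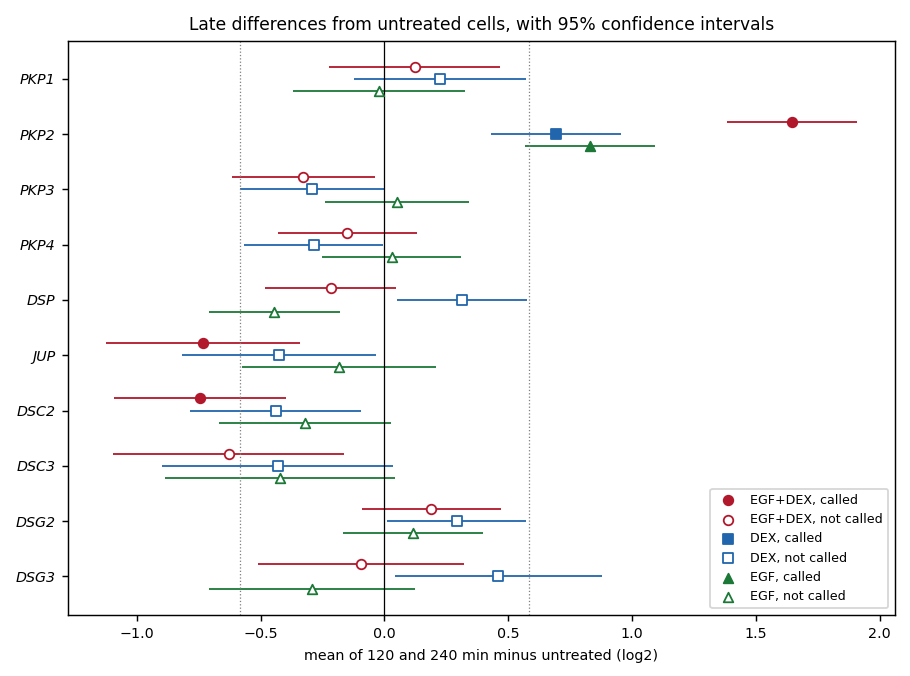
Late difference from untreated cells (log2, horizontal axis, mean of 120 and 240 min minus the 2 untreated arrays) of each desmosome gene (vertical axis) for EGF+DEX, DEX and EGF, with 95% confidence intervals of the limma fit, where filled symbols are called and dotted lines mark 1.5-fold. PKP2 is filled for the 3 treatments (1.65, 0.69 and 0.83), and JUP (-0.73) and DSC2 (-0.75) for EGF+DEX alone.

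Among the cadherins, the desmocollin DSC2 fell with EGF+DEX, and the desmoglein DSG3 was higher with DEX than with EGF. DSC2, the desmocollin made in most epithelia, measured 8.04 and 7.77 at 20 min, 8.05 and 8.31 at 40 min, 7.77 and 7.49 at 60 min, 7.47 at 120 min and 7.29 at 240 min of EGF+DEX, against 8.238 and 8.004 in untreated cells. The arrays at 20 and 40 min lay on both sides of the untreated arrays, and from 60 min on all were below them. The lowest 3 of the 26 arrays were EGF+DEX arrays from 60, 120 and 240 min. The late arrays were 7.86 and 7.50 with DEX, and 8.01 and 7.59 with EGF.

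The late difference of DSC2 from untreated cells was -0.75 ± 0.16 with EGF+DEX (1.68-fold lower, adjusted p = 0.00992, limma), with 24 of 26 probesets lower. The single agents gave -0.44 ± 0.16 with DEX (adjusted p = 0.139) and -0.32 ± 0.16 with EGF (adjusted p = 0.416). The late call was lost without untreated replicate 1 (adjusted p = 0.102) or without the EGF+DEX 240-min array (0.0983). In the test over the 5 times DSC2 passed with EGF+DEX (largest difference -0.83, adjusted p = 0.0300, limma), and this call was lost without untreated replicate 1 (0.0653), EGF+DEX 40-min replicate 2 (0.0801) or the EGF+DEX 240-min array (0.114), with no brightness filter (0.0759) and with the mean of probesets (0.0727). Late against early arrays with EGF+DEX, the difference was -0.53 ± 0.13 (adjusted p = 0.0299), below 1.5-fold.

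The late differences of DSC2 between EGF+DEX and the single agents were -0.31 ± 0.16 against DEX (95% interval -0.65 to 0.04; adjusted p = 0.381) and -0.42 ± 0.16 against EGF (95% interval -0.77 to -0.08; adjusted p = 0.220), so that a difference between the treatments themselves did not pass. The same comparisons of JUP gave -0.31 ± 0.19 against DEX (adjusted p = 0.451) and -0.55 ± 0.19 against EGF (adjusted p = 0.148). The summed intensity of the 6 basal epithelial markers was also lower, at 12924 and 13393.5 on the late EGF+DEX arrays, against 16415.8 and 17436.7 on the untreated arrays. Early arrays spanned 13131.9 to 16068.8 with EGF+DEX and 13671.2 to 16580.7 with EGF, so low sums were not confined to the late times. Of the 6, 3 (KRT14, KRT17 and TP63) fell with EGF+DEX, and TP63 was also called lower late with DEX alone. The sum of the 5 luminal markers was lower too, at 1207.39 and 1489.76 against 1541.19 and 1551.61, with 0 of them called late. The part of these marker lists in the falls of DSC2 and JUP was not tested. In RNA from whole cultures, fewer cells that make a transcript and less of it per cell cannot be told apart.

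DSC3, the desmocollin of basal and stratified layers, measured 8.89 and 8.82 on the late EGF+DEX arrays, against 9.58 and 9.40 in untreated cells. Both late arrays were lower than both untreated arrays, and all 27 probesets were lower. The late difference of -0.63 ± 0.22 did not pass (adjusted p = 0.0915, limma). DSC3 was the most variable member between replicates, with a residual spread of 0.26 (90.4th percentile of all genes) and a gap of 0.72 between 9.64 and 8.92 at 20 min of EGF. With DEX its late difference was -0.43 ± 0.22 and with EGF -0.42 ± 0.22, neither past the threshold.

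DSG3, the desmoglein of basal keratinocytes and the target of autoantibodies in pemphigus vulgaris, measured 9.49 and 9.54 on the late DEX arrays, against 8.96 and 8.56 on the late EGF arrays. The untreated arrays lay at 9.26 and 8.84 and the late EGF+DEX arrays at 8.97 and 8.94. The late DEX arrays were above all of these. Similar levels were reached at 40 min, at 9.55 and 9.29 with DEX and 9.40 and 9.53 with EGF+DEX. At 60 min of DEX the level was 9.10 and 9.12. DSG3 was 0.75 ± 0.20 higher with DEX than with EGF at the late times (1.69-fold, adjusted p = 0.0165, limma), with 29 of 30 probesets higher. The call was lost without the EGF 240-min array (0.56, adjusted p = 0.164) or the DEX 240-min array (0.73, adjusted p = 0.104). Neither agent alone passed against untreated cells, with late differences of 0.46 ± 0.20 for DEX (adjusted p = 0.203) and -0.29 ± 0.20 for EGF (adjusted p = 0.556).

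DSG2, the desmoglein found in all tissues with desmosomes, had the smallest range of group means of the 10 members, at 0.38. Its 26 arrays spanned 9.25 to 9.79, and the lowest array was untreated. The late differences from untreated cells were 0.19 ± 0.13 with EGF+DEX, 0.29 ± 0.13 with DEX (adjusted p = 0.232) and 0.12 ± 0.13 with EGF. No comparison of DSG2 passed, and the 95% interval with EGF+DEX was -0.09 to 0.47. In RefSeq, DSC2, DSC3, DSG2 and DSG3 are neighbours in one cadherin cluster on chromosome 18, together with DSC1, DSG1 and DSG4.

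Desmoplakin (DSP), the plakin that ties the plaque to keratin filaments, parted between the 2 agents. Its level at 20, 40 and 60 min of DEX was 10.60 and 10.57, 10.71 and 10.75, and 10.81 and 10.77, with 11.04 at 120 min and 11.15 at 240 min. With EGF it was 10.67 and 10.49, 10.59 and 10.77, and 10.56 and 10.51 at the same early times, with 10.33 at 120 min and 10.35 at 240 min. Untreated cells gave 10.77 and 10.80, and EGF+DEX gave 10.65 and 10.48 at the late times. The late DEX arrays were the highest of all 26 and the late EGF arrays the lowest, with the late EGF+DEX arrays between them.

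DSP was 0.76 ± 0.12 higher with DEX than with EGF at the late times (1.69-fold, adjusted p = 5.64e-04, limma), and all 40 probesets were higher. DSP and DSG3 were the 2 members called in this comparison, in which 8.11% of all genes were called, 2.4% as higher with DEX. Leaving out any single array did not end the DSP call. Against untreated cells the late differences were 0.31 ± 0.12 with DEX (adjusted p = 0.168) and -0.44 ± 0.12 with EGF (adjusted p = 0.0931), and neither passed. Late against early, DSP rose by 0.39 ± 0.10 with DEX (adjusted p = 0.0334, limma), below 1.5-fold, and 0 members were called there (2.34% of all genes, and 3 members at an unadjusted p under 0.05, against 16.6% of all genes).

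With EGF+DEX, late DSP was 0.53 ± 0.12 lower than with DEX (difference -0.53, adjusted p = 0.0276), below 1.5-fold. Without the EGF+DEX 120-min array it was called, at -0.62 (adjusted p = 0.0400). Against EGF the late difference was 0.23 ± 0.12 (95% interval -0.04 to 0.49; adjusted p = 0.410). In the fibroblast marker list, the summed intensity of the 5 measured genes was 684 and 961 on the late DEX arrays, against 474 and 495 on the late EGF arrays. The median difference of the 5 was 0.18, and 1 had an unadjusted p under 0.05 (limma), against 28% of all genes. Of the 5, DCN alone was called higher with DEX, by 1.26 (adjusted p = 5.80e-05, limma), and COL1A1 differed by 0.05. The part of this list in the DSP and DSG3 differences was not tested.

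Some members followed each other over the 16 group means. The correlation was 0.95 for DSC2 with DSC3, 0.89 for JUP with DSC2 and 0.81 for DSP with DSG3, as a description of 16 means that share arrays, normalization and the untreated cells. Over the same means PKP2 ran the other way, at -0.82 with DSC3, -0.78 with DSC2 and -0.76 with JUP. The deviations of replicates within the 10 groups of 2 arrays gave partly other pairs. They correlated at 0.90 for DSC3 with DSG3, 0.80 for JUP with DSG3 and 0.78 for DSC2 with DSC3. JUP with DSC2 gave 0.42 there and DSP with DSG3 gave 0.35. Of the 5571 other genes whose group means varied by an SD of at least 0.2, those most like PKP2 were KRT6B, a keratin of activated epithelium (r = 0.93), CCNA1, a cyclin (r = 0.92), and SLCO4A1, an organic anion transporter (r = 0.91). Those most like DSC2 were CLIP4 (r = 0.95), FAM102A (r = 0.95) and MAP3K12, a kinase (r = 0.95).

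Exon arrays read each gene at many places, and single probesets of DSC3 and PKP1 departed from the rest of their gene between EGF+DEX and EGF (limma diffSplice, where 4.8% of all genes were called, and 2 members). In DSC3, 1 of 27 probesets was lower by 1.21 relative to the others (difference -1.21, adjusted p for the gene = 8.50e-04). It measured 3.06 to 6.85 on the EGF+DEX arrays, against 5.29 to 7.47 on the EGF arrays, so that the treatments overlapped. In PKP1, 1 of 16 probesets was higher by 1.22 relative to the others (adjusted p for the gene = 0.00440), at 4.25 to 6.29 with EGF+DEX, against 2.06 to 5.62 with EGF. Both probesets fell below 4.65, the background that a probeset mean had to exceed, on some arrays, the DSC3 one on 2 of 8 EGF+DEX arrays and 0 of 8 EGF arrays and the PKP1 one on 1 of 8 EGF+DEX arrays and 3 of 8 EGF arrays, so the sizes of these departures rest partly on values below background. Both calls were lost without the EGF 240-min array or the EGF+DEX 240-min array, when 0 members were called. The PKP1 call was also lost without EGF 20-min replicate 2 or EGF 60-min replicate 1, when 1 member was called. The test assumes that the probesets of a gene vary alike. For DEX late against untreated cells, 0 members were called (4.98% of all genes), and PKP2 came nearest, with 1 probeset that departed by -1.56 (adjusted p for the gene = 0.0770).

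Other genes of the junctions and of the filaments attached to them were counted in the same way. In the late average with EGF+DEX, 5.23% of all genes were called and 22.5% had an unadjusted p under 0.05 (limma). Of 9 further desmosome and cornified-plaque genes 8 were measured, and 0 of them were called in the late average with EGF+DEX under limma, with 4 at an unadjusted p under 0.05. PERP, a membrane protein of desmosomes, came closest, at -0.53 (adjusted p = 0.0351). Of 10 keratins and intermediate filament genes measured, KRT6B rose late with EGF+DEX by 0.99 (adjusted p = 7.78e-04), and KRT15, KRT14 and KRT17, keratins of basal cells, fell by 1.68, 0.71 and 0.68 (adjusted p of 0.00541 or less, limma). KRT15 was called lower late with EGF alone as well. Of 8 tight junction genes, CLDN1, F11R and TJP3 fell late with EGF+DEX by 0.69, 0.60 and 0.77. CLDN1 was also called lower late with DEX alone. Of 8 hemidesmosome genes, DST, a plakin that links keratin to hemidesmosomes, fell by 0.60. Of 10 adherens junction genes 0 were called late with EGF+DEX under limma, with 3 at an unadjusted p under 0.05.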

How the data were processed

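RNA of 26 MCF10A samples was hybridised to Affymetrix Human Exon arrays. The authors deposited linear probeset intensity values made with the Affymetrix Expression Console. How this software summarised probes and subtracted background, and its version, is not given in the sources used here. Between arrays the quartiles were at most 0.0971 apart (log2), so the deposited intensity values were taken as normalized. Arrays have no read depth, and precision rests on the number of arrays.

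Values were log2 transformed without offset. Symbols came from the platform annotation: 354421 of 844005 probesets had 1 symbol, 14891 several and 474693 none. Probesets with 1 symbol and a mean above 4.65, the median of the mean levels of probesets without a symbol, were kept (262233), and genes with at least 3 of them were summarised by median polish (16600 genes). A model of 16 group means was fitted with limma 3.58.1 in R 4.3.3 (10 residual degrees of freedom), with Benjamini-Hochberg adjustment. The test over the 5 times is an F-test, and its fold is that of the largest difference. The study's methods name no test for these arrays. Exon use was tested with diffSplice, with a departure of at least 1 (log2). The scripts were tested on simulated data.

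All 10 members are named whatever their values. For members called against untreated cells, the 3 genes with the most similar group means are named, and of the other lists the called genes. PERP was named after its values were seen. Members and lists were chosen with earlier results of these data known, and the late comparisons between treatments (DEX against EGF, EGF+DEX against either, and their departure from the sum) were added after the members' values were seen. Alternatives covered the brightness filter, normalization, summary, log offset, variance model, fold minimum, times, replicate number and each array left out.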

Additional observations from a re-analysis of the deposited data

Results flagged for a closer look

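5 late results, given in the report, differed between treatments or times by a test of the difference itself. The late comparisons between treatments were added after the members' values were seen, so their p-values come from comparisons chosen on these same values. PKP2 was 1.21 ± 0.10 (log2, SE) higher late than early with EGF+DEX (adjusted p = 2.13e-06, limma), and both late arrays were above all 6 early arrays. DSP was 0.76 ± 0.12 higher with DEX than with EGF late (adjusted p = 5.64e-04, limma), and DSG3 0.75 ± 0.20 higher (adjusted p = 0.0165, limma). In both genes the 2 late DEX arrays were above the 2 late EGF arrays, but the DSG3 call was lost without the EGF or the DEX array at 240 min. PKP2 was 0.81 ± 0.12 higher late with EGF+DEX than with EGF (adjusted p = 9.70e-04, limma) and 0.95 ± 0.12 higher than with DEX (adjusted p = 5.45e-04, limma), and both late EGF+DEX arrays were above all 4 late arrays of the single agents.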

How the results depend on the processing

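Over 24 member results and 848 alternatives, 802 kept direction and side of the threshold, 35 lost the call, 11 gained one and 0 reversed. Counts of called members moved as follows. A fold minimum of 2 gave 0 with EGF, 0 with DEX and 1 with EGF+DEX over the 5 times, 1 late against untreated (5 in the 3 treatments together otherwise), 0 at single early times (1 otherwise) and 0 in each late comparison between treatments. With no fold minimum the counts were 3 for EGF+DEX against EGF, 1 for EGF+DEX against DEX, 1 for EGF and 1 for DEX late against early, 2 for EGF+DEX late against early, 2 at single early times and 2 for EGF+DEX against DEX late. Using times to 60 min gave 0 with EGF, 0 with DEX and 1 with EGF+DEX. The mean of probesets gave 0 with DEX, 1 with EGF+DEX and 2 at single early times, and no brightness filter gave 1 with EGF+DEX. In exon use, the stricter background gave 1 in each comparison. Leaving out each array gave 0 to 1 with EGF, 0 to 1 with DEX, 1 to 3 with EGF+DEX, 3 to 6 late against untreated (3 without untreated replicate 1, untreated replicate 2 or EGF+DEX 240 min), 1 to 2 at single early times, 1 to 2 for DEX against EGF late, 1 to 2 for EGF+DEX against DEX late, and 0 to 2 in both exon comparisons. The cause of these changes was not tested. The labels do not say whether replicate numbers pair the arrays. Over 45 pairs of groups the correlation of replicate differences ran between -0.20 and 0.31, and 12 were over 0.1, which cannot decide it. With the replicate block, 3 members were called with EGF+DEX over the 5 times (JUP added), 6 late against untreated (DSC3 with EGF+DEX added) and 1 in exon use with DEX late (PKP2). Only 1 array stands behind each late time, so no late value has its own replicate.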
